A study of Homo sapiens with 6 samples.

Results

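The genes described here encode the metzincin proteases that cleave the extracellular matrix and cell surface proteins, and their tissue inhibitors. They are the matrix metalloproteinases (MMP), the ADAM, ADAMTS and ADAMTS-like (ADAMTSL) genes, and the TIMP genes. Members were taken by symbol among probe sets whose platform annotation names 1 gene, and where a gene had several, its brightest one, by the mean of all 6 arrays, stood for it. This gave 70 of the 18132 genes measured, namely 22 MMP, 20 ADAM, 18 ADAMTS, 6 genes with an ADAMTSL symbol and 4 TIMP genes. The symbol rule also takes in the antisense RNA ADAMTSL4-AS1 and the pseudogene ADAM3A. MDA-MB-231, a human triple-negative breast cancer line with mesenchymal features, was kept for 8 h with 5 µM SAHA or with DMSO, the solvent control, with 3 arrays per group. Neither group carries an engineered allele, and both were grown in medium with serum. SAHA (vorinostat) inhibits zinc-dependent histone deacetylases. RNA was measured on Affymetrix PrimeView arrays, and the comparison asks which transcripts differ after SAHA. Whether the replicates came from separate cultures is not in the labels, and p-values therefore cover only the spread between these samples, which may be technical.

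MMPs, ADAMs and ADAMTS enzymes are made as proforms whose zinc site is blocked by a prodomain, and proprotein convertases, plasmin or other MMPs remove it. Secreted MMPs and the membrane-type MMPs open collagen and basement membrane to invading cells. ADAMs shed the outer domains of growth factors and receptors, ADAMTS enzymes cleave proteoglycans and trim procollagen, and the TIMPs block the zinc site. MDA-MB-231 is widely used to study invasion.

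Values are log2 expression values from RMA, and fold changes are SAHA over DMSO with limma's moderated standard error (SE, n = 3 arrays per group). A gene was called where its Benjamini-Hochberg adjusted p over all 18132 genes was under 0.05. RMA makes the arrays' distributions alike, which hides any change that most transcripts share. The 3' to 5' difference of the ACTB control probe sets was 0.61 ± 0.06 in SAHA arrays and 0.89 ± 0.16 in DMSO arrays (SD, n = 3 each), and poly-A spike-ins were at 6.15 ± 0.07 in SAHA arrays and 6.30 ± 0.10 in DMSO arrays. Each gave a two-sided exact permutation p of 0.1, the smallest that 3 against 3 allows (0.133 adjusted over 4 control measures), and their part in the results below was not tested. The GAPDH 3' to 5' difference ran the other way with the same p, at 0.063 ± 0.020 in SAHA arrays and 0.029 ± 0.019 in DMSO arrays. Of 5 markers that the line should hold, 4 were called lower and VIM, a mesenchymal marker at 14.02 in SAHA arrays and 13.96 in DMSO arrays, was not called. Of 5 markers that it should lack or hold at a low level, 0 were called higher and 2 lower. PGR, CDH1 and ESR1 had means from 3.33 to 5.99 over all arrays. EPCAM and ERBB2, the called ones, were not near the low end: EPCAM was at 7.74 in SAHA arrays and 8.67 in DMSO arrays, and ERBB2 at 7.16 in SAHA arrays and 7.63 in DMSO arrays. Of 5 fibroblast markers, COL1A1 and PDGFRB were called higher, while LUM and DCN had means between 2.82 and 3.48 in both groups, near the low end of the scale. The mean over the fibroblast markers was 4.50 to 4.53 in SAHA arrays and 4.25 to 4.29 in DMSO arrays. Of 4 leukocyte markers 2 were called lower, CD68 at 8.97 in SAHA arrays and 9.20 in DMSO arrays and CD3E at 4.63 in SAHA arrays and 4.88 in DMSO arrays, while PTPRC, at 3.24 in SAHA arrays and 3.33 in DMSO arrays, was not called. Of 3 endothelial markers 0 were called. The part of these markers in the results was not tested.

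All 4 TIMP genes rose with SAHA, while the membrane-bound collagenase gene MMP14 fell and MMP15, of the same class, rose. Secreted MMP genes moved apart, with MMP9, MMP3 and MMP13 higher and MMP1 slightly lower. Among the ADAMTS genes, ADAMTS6 and ADAMTS1 fell by more than 2-fold and ADAMTS17 rose. The sheddase gene ADAM10 was called higher at 0.24 ± 0.08 (1.18-fold), a call that did not pass in 8 of 19 alternative settings. ADAM17, at 0.16 ± 0.08, was not called, and a difference between these sheddase genes was not tested. In all, 24 of the 70 genes were called, 14 higher and 10 lower, a share of 34.3% against 48.3% of all genes (24.6% higher and 23.8% lower). The median log2 fold change was -0.002 over the 70 genes and -0.007 over all genes. In bulk RNA, a change in the share of cells that make a transcript and a change in the amount per cell cannot be told apart.

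Many of these genes lie at low signal, where few genes of any kind are called. Of the 29 with a mean log2 value under 5, 3 were called (10.3%, against 11.9% of all genes at that level). Between 5 and 7 it was 10 of 25 (40%, against 39.4%), and at 7 or more 11 of 16 (68.8%, against 75.1%). At a given level the share called was therefore close to that of all genes. At 2-fold or more, 8 members were called (10.4% of all genes were), 5 of them higher (5.93% of all genes) and 3 lower (4.47% of all genes). The values of the groups did not overlap in 30 of the 70 genes, against 55.5% of all genes. The split of calls depends on scaling: centred on poly-A spike-ins, which moves the median of all genes by 0.16, 21 members were higher and 7 lower, centred on ribosomal protein genes 21 and 9, and after a second quantile normalization 12 and 14. With the ACTB difference as a covariate, 9 of the 24 calls were lost, and the log2 fold changes were then 0.23 ± 0.09 for TIMP1, -0.28 ± 0.15 for MMP20, 0.64 ± 0.24 for ADAM11 and 0.18 ± 0.13 for ADAM30. They were -0.33 ± 0.11 for ADAMTS9, 0.29 ± 0.17 for ADAMTS15 and 0.33 ± 0.11 for ADAMTSL5, and moved by over 1.5 times in ADAM10 (0.08 ± 0.12) and ADAMTSL1 (-0.28 ± 0.12).

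**Figure D1:**
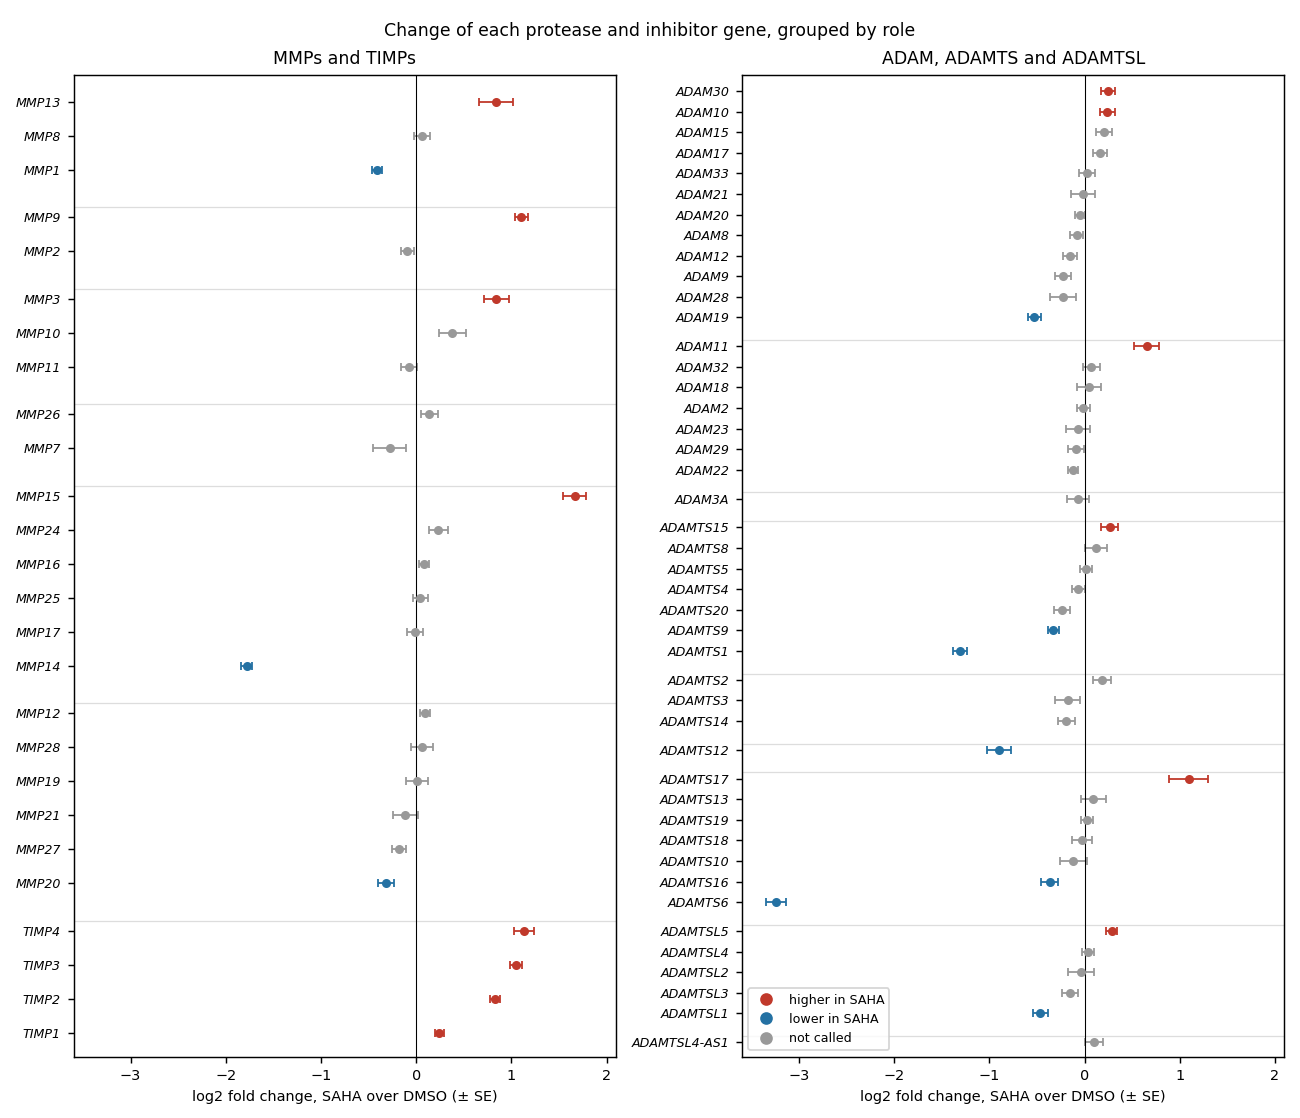
Log2 fold change of each of the 70 genes, SAHA over DMSO, on the x axis, with limma's SE as bars (n = 3 arrays per group); genes run down the page by role, and grey lines part the roles. All 4 TIMP genes lie right of 0, ADAMTS6 at -3.24 is the leftmost point and MMP15 at 1.67 the rightmost.

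TIMP3, the inhibitor that binds the matrix and also blocks ADAM17 and the aggrecan-cleaving ADAMTS enzymes, was at 9.66, 9.61 and 9.56 in SAHA arrays, against 8.57, 8.63 and 8.49 in DMSO arrays. Every SAHA value lay above every DMSO value, a log2 fold change of 1.05 ± 0.06 (2.07-fold, adjusted p = 4.51e-06). Its other probe sets gave 1.79 ± 0.06 and 1.12 ± 0.09. TIMP2, which inhibits MMPs and at low amounts helps MMP14 activate pro-MMP2, was at 11.49, 11.43 and 11.41 in SAHA arrays, against 10.61, 10.66 and 10.57 in DMSO arrays. Its groups did not overlap either, and the rise was 0.83 ± 0.05 (1.77-fold, adjusted p = 8.87e-06), or 0.50 ± 0.07 in its dimmer probe set.

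TIMP4, best known from the heart, was at 6.84, 6.79 and 6.82 in SAHA arrays, against 5.44, 5.73 and 5.87 in DMSO arrays. The DMSO arrays were more spread than the SAHA arrays, and the log2 fold change was 1.13 ± 0.11 (2.19-fold, adjusted p = 5.74e-05) in its only probe set. TIMP1, which inhibits most secreted MMPs but is weak against membrane-type ones, was at 11.12, 11.10 and 11.07 in SAHA arrays, against 10.82, 10.88 and 10.85 in DMSO arrays. That is the smallest change of the family, 0.24 ± 0.05 (1.19-fold, adjusted p = 0.00460), though again without overlap. The brightest TIMP1 probe set is of the kind that may also bind other transcripts (_x_at), and its second gave 0.24 ± 0.06. The rises of TIMP2 and TIMP3 were called in all 19 alternative settings. That of TIMP4 was called in the 18 that kept it (a mean of at least 7 leaves it out). Since TIMP4 has 1 probe set, settings that change the probe set use the same one and are no check for it. The rise of TIMP1 was called in all but the fit with the ACTB difference as a covariate (0.23, adjusted p = 0.113).

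**Figure D2:**
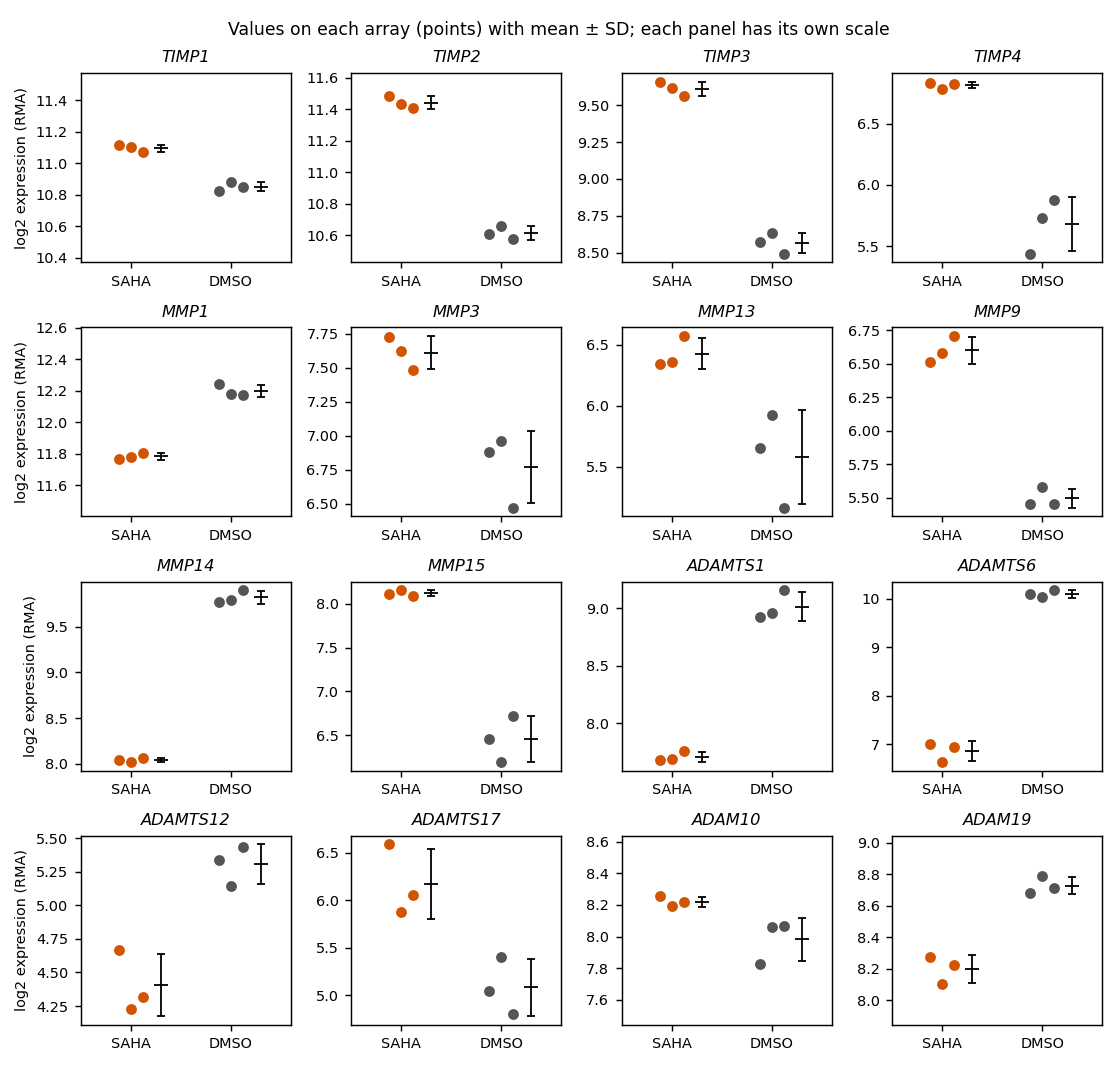
Log2 expression of 16 of the genes on each array (points, 3 per group) with mean ± SD (bars), SAHA left and DMSO right; the y axis differs between panels. The groups do not overlap in any panel, and the distance between them runs from 0.24 log2 units in ADAM10 to 3.24 in ADAMTS6.

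MMP14 encodes the membrane-type enzyme MT1-MMP, which cleaves fibrillar collagen at the cell surface and activates pro-MMP2. It was at 8.04, 8.02 and 8.07 in SAHA arrays, against 9.77, 9.79 and 9.90 in DMSO arrays. The SAHA arrays agreed within 0.02 (SD) and lay far below the DMSO arrays, a log2 fold change of -1.78 ± 0.06 (3.43-fold lower, adjusted p = 3.67e-07). All 4 of its probe sets were called lower, from -2.50 ± 0.06 to -0.90 ± 0.08. MMP15, which encodes the related MT2-MMP, was at 8.12, 8.16 and 8.09 in SAHA arrays, against 6.46, 6.19 and 6.72 in DMSO arrays. It rose by 1.67 ± 0.12 (3.18-fold, adjusted p = 1.44e-05) without overlap, but its dimmer probe set, at a mean of 4.85, gave 0.14 ± 0.07 (adjusted p = 0.167 over probe sets). The other membrane-type genes MMP24, MMP16, MMP25 and MMP17 were not called, at 0.23, 0.08, 0.04 and -0.01 in that order. MMP2, which encodes the gelatinase that MMP14 activates, was not called either (-0.09 ± 0.06), with values of 5.30 to 5.37 in SAHA arrays and 5.33 to 5.49 in DMSO arrays.

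The stretches just before the start sites of MMP14, MMP15, TIMP1, TIMP3 and TIMP4 are shown because MMP14 and MMP15 moved in opposite directions within 1 class and these TIMP genes rose. They come from the RefSeq promoter table of build GRCh38.p14, which matched 43 of the 70 genes, and hold the 150 bases before each start, 5′ to 3′ on the gene's strand. The genes and the stretches were chosen after their values were seen. MMP14 is read from chr14:22836435-22836584 (plus strand), MMP15 from chr16:58025604-58025753 (plus strand), TIMP1 from chrX:47582286-47582435 (plus strand), TIMP3 from chr22:32801555-32801704 (plus strand) and TIMP4 from chr3:12158913-12159062 (minus strand). Capitals mark the letters GGGCGG, the core bound by SP1-family factors, on either strand, where the other strand reads CCGCCC.
MMP14: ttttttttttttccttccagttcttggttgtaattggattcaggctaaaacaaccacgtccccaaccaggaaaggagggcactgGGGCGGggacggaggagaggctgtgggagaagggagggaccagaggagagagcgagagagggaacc
MMP15: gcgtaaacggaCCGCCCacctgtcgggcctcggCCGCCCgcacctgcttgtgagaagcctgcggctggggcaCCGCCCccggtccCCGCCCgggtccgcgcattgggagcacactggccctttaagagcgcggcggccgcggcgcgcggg
TIMP1: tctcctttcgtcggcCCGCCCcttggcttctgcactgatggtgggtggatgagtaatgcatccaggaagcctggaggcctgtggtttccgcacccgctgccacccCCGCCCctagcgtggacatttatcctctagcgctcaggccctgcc
TIMP3: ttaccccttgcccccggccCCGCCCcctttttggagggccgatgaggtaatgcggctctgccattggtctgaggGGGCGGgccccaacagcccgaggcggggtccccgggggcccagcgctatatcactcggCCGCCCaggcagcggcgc
TIMP4: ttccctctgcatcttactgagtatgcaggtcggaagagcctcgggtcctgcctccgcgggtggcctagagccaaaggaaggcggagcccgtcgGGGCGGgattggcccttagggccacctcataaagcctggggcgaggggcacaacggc
MMP14, which fell, and TIMP4, which rose, each hold 1 such match in the stretch shown, while TIMP1 holds 2, TIMP3 holds 3 and MMP15 holds 4. Over the 250 bases before the start, GGGCGG or its complement is present in 28 of the 43 matched genes (65.1%), against 42.3% of 27305 promoters, with 1 start per gene. Of the 14 called genes with a promoter, 9 hold it. TGAGTCA (the AP-1 site, TGACTCA on the other strand) is present in 1 of the 43, MMP7 (2.33%), against 4.16% of promoters. MMP1, MMP3 and MMP13 are among the genes without an entry in the promoter table. Their promoters were not searched, so the counts say nothing of these called genes. GGAAGT (an ETS site, ACTTCC on the other strand) is present in 6 against 19.9%, and TATAAA in 8 against 11.1%, with its complement searched too. GGGCGG and GGAAGT can share end letters, and a match describes letters, not a bound site.

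MMP1, the interstitial collagenase, was at 11.77, 11.78 and 11.81 in SAHA arrays, against 12.24, 12.18 and 12.18 in DMSO arrays. It stayed high in both groups and fell by 0.42 ± 0.05 on the log2 scale (1.33-fold lower, adjusted p = 0.000273), or by 0.33 ± 0.06 in its other probe set. MMP13, collagenase 3, was at 6.34, 6.36 and 6.57 in SAHA arrays, against 5.66, 5.93 and 5.16 in DMSO arrays. The rise in this probe set was 0.84 ± 0.18 (1.79-fold, adjusted p = 0.00511), with widely spread DMSO values. Dimmer probe sets of MMP13 gave 2.64 ± 0.06, 1.38 ± 0.16 and 0.81 ± 0.17, and the dimmest -0.10 ± 0.08, so the size depends on the probe set. MMP8, neutrophil collagenase, was not called (0.06 ± 0.09, at a mean of 3.57).

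Stromelysin 1, encoded by MMP3, cleaves proteoglycans and activates other pro-MMPs. Its only probe set, of the kind that may also bind other transcripts (_s_at), was at 7.73, 7.62 and 7.49 in SAHA arrays, against 6.88, 6.96 and 6.47 in DMSO arrays. The groups did not overlap, and it rose by 0.84 ± 0.13 (1.79-fold, adjusted p = 0.000989). MMP10, stromelysin 2, was at 3.52, 4.10 and 3.82 in SAHA arrays and 3.57, 3.44 and 3.28 in DMSO arrays, which overlap (0.38 ± 0.14, adjusted p = 0.0641). It passed the threshold in 5 of 17 alternative settings, 1 of them without SAHA replicate 1, with values from 0.24 to 0.54 over all of them. MMP11, stromelysin 3, was at -0.08 ± 0.08 in its brighter probe set (adjusted p = 0.510).

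MMP9, gelatinase B, which cleaves denatured collagen and basement membrane, was at 6.51, 6.58 and 6.71 in SAHA arrays, against 5.45, 5.58 and 5.45 in DMSO arrays. Its SAHA values lay about 1 log2 unit above the DMSO values, at 1.10 ± 0.07 (2.15-fold, adjusted p = 7.79e-06) in its only probe set. The matrilysins MMP7 and MMP26, which lack the hemopexin domain, were not called. MMP7 was at 4.36, 4.68 and 4.32 in SAHA arrays and 5.11, 4.64 and 4.46 in DMSO arrays (-0.28 ± 0.17, adjusted p = 0.234), and MMP26 at 0.14 ± 0.09. Of the remaining MMP genes, MMP20, the enamel protease, was called lower at the low end of the scale, at 3.42, 3.46 and 3.22 in SAHA arrays against 3.78, 3.60 and 3.67 in DMSO arrays (-0.31 ± 0.08, adjusted p = 0.0141). Centred on ribosomal protein genes or poly-A spike-ins, or with the ACTB covariate, MMP20 did not pass. MMP12, MMP28, MMP19, MMP21 and MMP27 lay between -0.18 and 0.09 and were not called.

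MMP7, MMP20, MMP27, MMP8, MMP10, MMP1, MMP3, MMP12 and MMP13 stand side by side in that order on chromosome 11, with no other protein-coding gene between them in the RefSeq gene table of assembly GRCh38.p14. Of these 9 neighbours, 2 were called higher (MMP3 and MMP13), 2 lower (MMP20 and MMP1) and 5 not called, against 48.3% of all genes called. MMP7, MMP20, MMP27, MMP8, MMP10 and MMP12 lie under a mean of 5, where 11.9% of all genes were called. MMP1 and MMP3, which are adjacent, were called in opposite directions.

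Of the 20 ADAM genes, 3 were called higher and 1 lower (20%, against 48.3% of all genes), and none by 2-fold. Their median mean level was 5.04, against 6.77 over all genes. Of all genes, 11.9% were called under a mean of 5 and 39.4% between 5 and 7. ADAM19, which sheds neuregulins, was at 8.28, 8.10 and 8.22 in SAHA arrays, against 8.68, 8.79 and 8.71 in DMSO arrays. It fell by 0.53 ± 0.07 on the log2 scale (1.44-fold lower, adjusted p = 0.000272) in a probe set shared by similar transcripts (_s_at), while its 3 dimmer probe sets gave -0.10, -0.07 and 0.00 and were not called. ADAM10, the sheddase of Notch receptors and many adhesion molecules, was at 8.26, 8.19 and 8.22 in SAHA arrays, against 7.82, 8.06 and 8.06 in DMSO arrays. The rise was 0.24 ± 0.08 (1.18-fold, adjusted p = 0.0345), with all 4 probe sets between 0.20 and 0.24. It did not pass without SAHA replicate 1 (0.22), 2 (0.25) or 3 (0.24) or without DMSO replicate 1 (0.16), with adjusted p from 0.0646 to 0.0965, and it was 0.08 with the ACTB covariate. ADAM17, the sheddase of TNF and EGF receptor ligands, was at 9.48, 9.26 and 9.28 in SAHA arrays and 9.21, 9.22 and 9.10 in DMSO arrays, and was not called (0.16 ± 0.08, adjusted p = 0.129).

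ADAM30, a testis gene, was called higher near the low end of the scale (0.25 ± 0.07, adjusted p = 0.0256) and did not pass without SAHA replicate 1 (0.26) or 3 (0.21) or DMSO replicate 1 (0.19) or 3 (0.26). The other ADAM genes with a catalytic site were not called, with ADAM15 at 0.20 and ADAM33 at 0.03. ADAM21 was at -0.01, ADAM20 at -0.04, ADAM8 at -0.08, ADAM12 at -0.15, ADAM9 at -0.23 and ADAM28 at -0.23. ADAM9, at 10.92, 10.91 and 11.02 in SAHA arrays and 11.29, 11.02 and 11.22 in DMSO arrays, came close to the threshold (adjusted p = 0.0510), and passed with the mean of its probe sets.

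ADAM11 belongs to the ADAMs without a catalytic site that act as receptors of LGI proteins in nerve cells. It was at 7.37, 7.16 and 6.81 in SAHA arrays, against 6.44, 6.46 and 6.47 in DMSO arrays. The SAHA arrays were spread but all higher, a rise of 0.65 ± 0.13 (1.57-fold, adjusted p = 0.00352). Its dimmer probe sets gave -0.20 ± 0.07 and 0.29 ± 0.10, neither called. The related ADAM22 and ADAM23 were not called (-0.12 and -0.07), nor were ADAM2, ADAM18, ADAM29 and ADAM32, known from germ cells, between -0.09 and 0.07. The pseudogene ADAM3A (-0.07) and the antisense RNA ADAMTSL4-AS1 (0.10) were not called either.

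ADAMTS6, an enzyme linked to microfibril and heart development, gave the largest change of the 70 genes. It was at 7.01, 6.63 and 6.94 in SAHA arrays, against 10.09, 10.04 and 10.18 in DMSO arrays. The groups lay over 3 log2 units apart, a log2 fold change of -3.24 ± 0.10 (9.46-fold lower, adjusted p = 3.53e-07). The value rests on 1 probe set, since its other one, at a mean of 4.06, gave 0.11 ± 0.12 (adjusted p = 0.510 over probe sets). ADAMTS17, a close relative of ADAMTS19 linked to eye and skeletal development, was at 6.59, 5.88 and 6.06 in SAHA arrays, against 5.04, 5.40 and 4.80 in DMSO arrays. Its groups did not overlap but were spread, with an SD of 0.37 in SAHA arrays and 0.30 in DMSO arrays, and it rose by 1.09 ± 0.21 (2.14-fold, adjusted p = 0.00286).

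ADAMTS1, which cleaves versican and aggrecan, was at 7.68, 7.69 and 7.76 in SAHA arrays, against 8.92, 8.96 and 9.16 in DMSO arrays. Both of its probe sets fell, by 1.31 ± 0.07 (2.48-fold lower, adjusted p = 4.32e-06) in the brighter one and by 1.55 ± 0.11 in the other. ADAMTS9, another versican-cleaving enzyme, fell by 0.33 ± 0.06 (adjusted p = 0.00194), a call that did not pass centred on poly-A spike-ins (-0.17). ADAMTS15 was called higher at 0.26 ± 0.09 (adjusted p = 0.0458) with overlapping groups, at 5.99, 5.71 and 5.96 in SAHA arrays and 5.63, 5.53 and 5.71 in DMSO arrays. It did not pass without SAHA replicate 1 (0.21) or 3 (0.23) or DMSO replicate 1 (0.26) or 2 (0.22). ADAMTS8, ADAMTS5, ADAMTS4 and ADAMTS20, of the same proteoglycan-cleaving group, lay between -0.23 and 0.12 and were not called.

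ADAMTS12, which cleaves cartilage oligomeric matrix protein, was at 4.67, 4.23 and 4.32 in SAHA arrays, against 5.34, 5.14 and 5.43 in DMSO arrays. It fell by 0.90 ± 0.13 on the log2 scale (1.87-fold lower, adjusted p = 0.000530), while a probe set of nearly the same brightness gave -0.17 ± 0.09 (adjusted p = 0.182 over probe sets). ADAMTS16 fell by 0.37 ± 0.09 (adjusted p = 0.0116) in 1 probe set and by 0.72 ± 0.14 in the dimmer one, and did not pass centred on poly-A spike-ins (-0.21). The procollagen N-propeptidases ADAMTS2, ADAMTS3 and ADAMTS14 lay between -0.19 and 0.18, none called. ADAMTS14 had the smallest p of them, at 5.25, 5.41 and 5.11 in SAHA arrays and 5.53, 5.46 and 5.36 in DMSO arrays (adjusted p = 0.115). ADAMTS13, the von Willebrand factor protease, ADAMTS10, ADAMTS18 and ADAMTS19 lay between -0.12 and 0.09.

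The ADAMTS-like proteins share the ancillary domains of the ADAMTS enzymes but lack the protease. ADAMTSL1 was at 6.26, 6.17 and 6.39 in SAHA arrays, against 6.85, 6.71 and 6.67 in DMSO arrays. It fell by 0.47 ± 0.08 on the log2 scale (1.38-fold lower, adjusted p = 0.00160). Of its 8 probe sets 5 were called lower and none higher. ADAMTSL5 rose by 0.28 ± 0.06 (adjusted p = 0.00470) and by 0.33 ± 0.07 in a second probe set. ADAMTSL4, ADAMTSL2 and ADAMTSL3 lay between -0.16 and 0.04.

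Probe sets bear on how far these values hold. Of the 24 called genes, 6 had 1 probe set and 18 several, and in 11 of those 18 another probe set was called the same way. In the other 7 (MMP15, ADAM19, ADAM11, ADAMTS15, ADAMTS9, ADAMTS12 and ADAMTS6) no other probe set was called. None of the 47 genes with several probe sets was called in both directions. Of all probe sets 46.4% were called, which is not the share of genes whose probe sets agree or differ. That share over all genes is not given here, so these counts have no background.

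**Figure D3:**
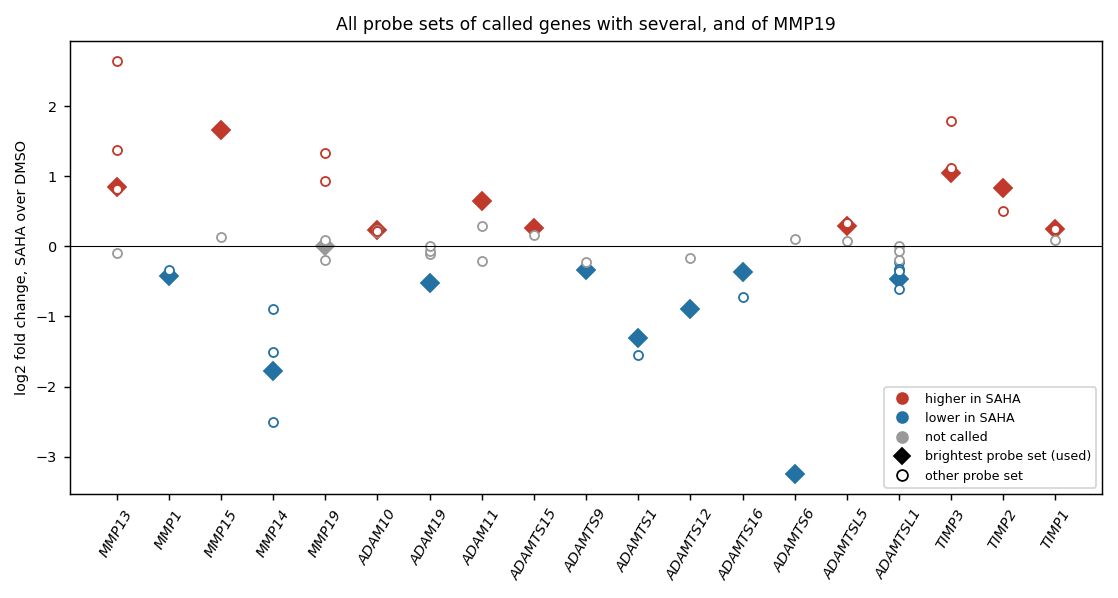
Log2 fold change, SAHA over DMSO, on the y axis for all probe sets of the 18 called genes with several and of MMP19; diamonds are the brightest probe set, used above, and open circles the others, coloured by their call over all probe sets. The 4 probe sets of MMP14 lie below 0 and the 3 of TIMP3 above it, while the other probe sets of MMP15 and ADAMTS6 lie near 0.

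Genes that act with these proteases were taken from lists of activators and cofactors, other inhibitors, and substrates. Of 17 activators and cofactors, 9 were called higher and 4 lower (76.5% called, against 48.3% of all genes). The list's genes have a median mean level of 7.45, and their median log2 fold change was 0.22 against -0.007 over all genes. At a mean of 7 or more, where 75.1% of all genes were called, lie 11 of them, all called but TSPAN17 and TSPAN5. TSPAN33, PCSK5, TSPAN10, PCSK6 and FURIN lie between 5 and 7, where 39.4% of all genes were called. All of these but FURIN were called. The list was chosen with earlier results of these data known, so its share is not read as an excess over the background. With the second brightest probe set, 5 of the 17 genes were called higher, against 9 above. PLG, at a mean of 3.93, was not called. The urokinase gene PLAU, whose enzyme makes plasmin, fell by 2.65 ± 0.07 on the log2 scale (6.26-fold lower). Its receptor gene PLAUR gave a log2 fold change of -2.47 ± 0.07 (5.55-fold lower) in a probe set that may also bind other transcripts (_x_at). The other PLAUR probe sets were all called lower, from -2.34 ± 0.07 to -0.90 ± 0.08, so the size depends on the probe set. The proprotein convertase gene PCSK5 rose by 1.39 ± 0.13 and the tetraspanin gene TSPAN33, whose protein escorts ADAM10, by 1.24 ± 0.06. RHBDF1 and FRMD8, which carry and hold ADAM17 at the surface, were called higher at 0.75 and 0.71, and the ADAM10 partner gene TSPAN15 at 1.05. Of the other tetraspanin genes listed, TSPAN10 was called higher at 0.45 and TSPAN14 lower at -0.42. TSPAN17 (0.12) and TSPAN5 (-0.08) were not called. The convertase gene PCSK6 was called lower at -0.59 and PCSK7 higher at 0.22. FURIN, the convertase of MMP14 and ADAM10, was not called (0.22).

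Of 9 other inhibitor and clearance genes measured, 4 rose and 0 fell (44.4% called, against 48.3% of all genes, median log2 fold change 0.16). RECK, which encodes a membrane-anchored inhibitor of MMP14, MMP2 and MMP9, was at 7.63, 7.56 and 7.61 in SAHA arrays, against 5.67, 5.31 and 5.31 in DMSO arrays. Its rise was 2.17 ± 0.10 (4.49-fold, adjusted p = 1.83e-06), and its other probe sets gave 0.12 ± 0.14 (not called) and 0.81 ± 0.14. TFPI2, a plasmin inhibitor of the matrix, was at 10.88, 10.85 and 10.90 in SAHA arrays, against 9.10 in each DMSO array. It rose by 1.77 ± 0.05 (3.42-fold, adjusted p = 2.51e-07). SERPINE2, which inhibits thrombin and urokinase, rose by 1.26 ± 0.06, and LRP1, the receptor that clears MMPs and TIMPs, by 0.27 ± 0.07. A2M, SPOCK1, SPOCK3, CST3 and PCOLCE were not called.

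Substrate genes moved both ways. Of 20 genes of ADAM substrates, 6 were called higher and 5 lower (55% called, against 48.3% of all genes, median 0.06). ICAM1 was at 2.65 ± 0.06 and the stress ligand MICA at 1.54 ± 0.06. The growth factor NRG1 was at -1.26 ± 0.07 and the hyaluronan receptor CD44 at -0.57 ± 0.06. The other CD44 probe sets were all called lower and fell further, from -0.69 ± 0.06 to -1.20 ± 0.07. Of 16 genes of ADAMTS and MMP substrates, 3 were called higher and 3 lower (37.5% called, against 48.3% of all genes, median 0.06). VCAN, which encodes the proteoglycan versican cleaved by ADAMTS1, was at 5.80, 5.66 and 5.85 in SAHA arrays, against 7.70, 7.75 and 7.89 in DMSO arrays. It fell by 2.01 ± 0.08 on the log2 scale (4.03-fold lower, adjusted p = 6.77e-07), and all its other probe sets were called lower. The basement membrane collagen genes COL4A1 and COL4A2 fell by 0.73 ± 0.06 and 0.34 ± 0.05, and the fibronectin gene FN1 rose by 0.67 ± 0.09.

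**Figure D4:**
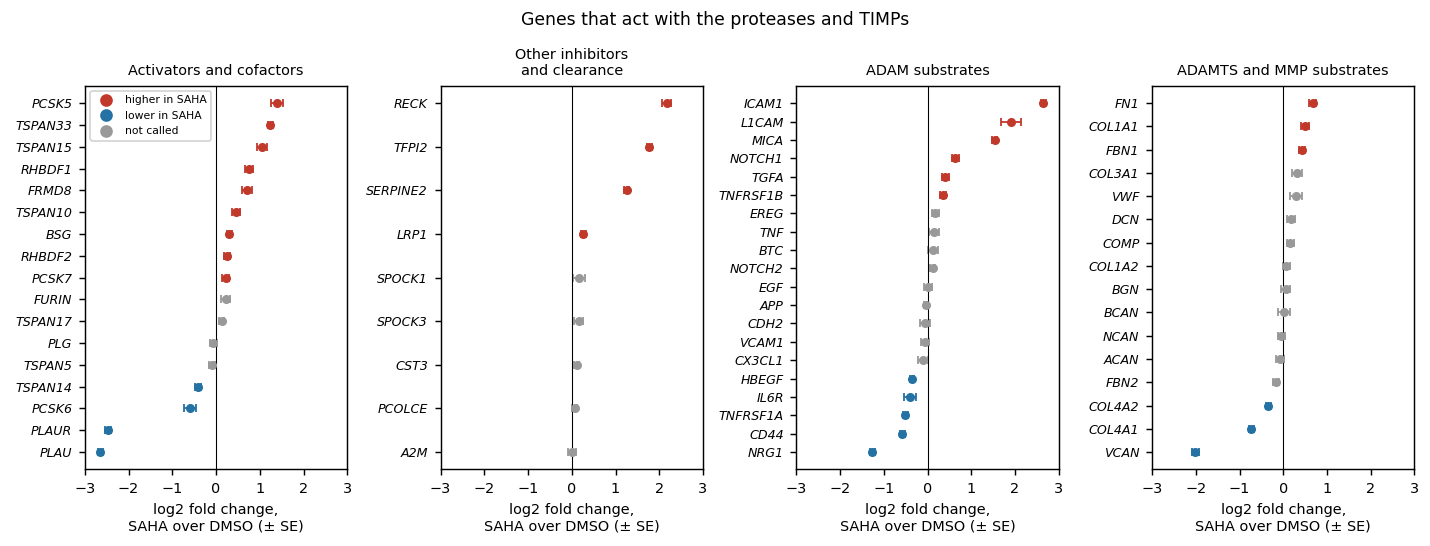
Log2 fold change, SAHA over DMSO, with SE (n = 3 arrays per group) for the measured genes of the activator, inhibitor and substrate lists, 1 panel per list. In the inhibitor panel no gene was called lower, and PLAU and PLAUR lie farthest left in the activator panel.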

How the data were processed

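RNA of MDA-MB-231 cells was hybridized to Affymetrix PrimeView arrays, 3 with SAHA and 3 with DMSO, and groups and replicate numbers came from the labels. The authors deposited log2 expression values per probe set made with RMA, per the submitters' processing notes, and the software behind it is not given in the sources used here. RMA corrects background, makes distributions equal and summarizes probes, and it understates changes near the low end of the scale. The number of arrays limits the precision.

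Gene names came from the platform annotation, updated through Entrez identifiers in a RefSeq table. Of 49293 probe sets other than controls, 44988 named 1 gene. Each gene had 1 value, that of its probe set with the highest mean, which gave 18132 genes. Differences were tested with limma 3.58.1 (R 4.3.3; lmFit and eBayes, two-sided, Benjamini-Hochberg over all genes at 0.05) over the 6 arrays without covariates or filter, and with the same test over all probe sets for second probe sets. The test was checked on simulated data. Promoter letters came from RefSeq, and figures were drawn with matplotlib.

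The members and lists were chosen with earlier results of these data known. Per-array values are given for the TIMP genes, for called members of at least 2-fold, and for the member with the smallest p in each other role. The pseudogene ADAM3A and the antisense RNA ADAMTSL4-AS1, each alone in its role, are given by log2 fold change only. Per-array values are also given for some others chosen after their values were seen. The 4 genes with the smallest p are named in each list of partner genes, and others were named after their values were seen. No set test was run. Alternatives changed the probe set, filter, scaling, moderation, array weights, a covariate, the replicate block, the threshold and the arrays used. Probe sets that name several genes were left out of the gene-level test.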

Additional observations from a re-analysis of the deposited data

How the results depend on the processing

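Few of the weakest members were called: of 29 with a mean log2 value under 5, 3 were, against 11.9% of all genes at that level. The part of signal over background in this was not tested. Of the 24 calls, those of ADAM11 and ADAMTS6 changed direction, both with the second brightest probe set (-0.20 and 0.11, neither past the threshold). MMP1, MMP3, MMP9, MMP13, MMP14, ADAMTS1, ADAMTS17, TIMP2, TIMP3 and TIMP4 stayed past the threshold in every alternative that kept them (18 or 19 each). Of these, MMP3, MMP9, ADAMTS17 and TIMP4 have 1 probe set. Settings that change the probe set use the same one again, so they are no check for these genes. The counts of members were 14 higher and 10 lower. Leaving out 1 array gave 11 to 14 higher and 10 to 11 lower. With genes of a mean of at least 7, where fewer members are tested, 8 were higher and 6 lower, and with the ACTB control difference as a covariate, which takes up a residual degree of freedom, 8 were higher. The replicate number as a block gave 13 higher and 10 lower, with ADAM10 lost (adjusted p = 0.0656). Arrays with the same number did not deviate together (correlations of -0.13, -0.07 and -0.04 for replicates 1, 2 and 3), and no array of SAHA correlated best with its own number. Whether they share a culture or day is not in the labels, and so few arrays cannot decide it. For partner genes, the second brightest probe set gave 5 activators and 3 ADAM substrates higher. Centred on poly-A spike-ins, 7 other inhibitors were higher, 3 ADAM substrates lower and 7 ADAMTS and MMP substrates higher. The last count was also 7 centred on ribosomal protein genes, 5 with array weights and 3 to 5 leaving out 1 array, with 5 without SAHA replicate 2 or DMSO replicate 1. The cause of these moves was not tested. All other counts stayed within 1.5 times of those reported.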

Other observations

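Of the 46 genes not called, 6 had another probe set that was called in limma's test over all probe sets. The like share over all genes is not given here. The clearest is MMP19, an MMP of basement membrane, whose brightest probe set, shared by similar transcripts (_x_at), gave 0.01 ± 0.11. Its second gave 1.34 ± 0.10 (adjusted p = 1.42e-05), with a mean level of 6.02 close to the 6.13 of the first, and a dimmer one gave 0.93 ± 0.14. The other 2 probe sets of MMP19 gave 0.09 ± 0.11 and -0.19 ± 0.07 and were not called. With the mean of its probe sets MMP19 was called. ADAM12 (0.39 ± 0.13), ADAM15 (0.27 ± 0.06) and MMP11 (0.29 ± 0.10) each had a dimmer probe set called higher, and MMP16 (-0.32 ± 0.08) and MMP24 (-0.24 ± 0.08) one called lower.

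A pair of probe sets that name several genes lies outside the comparisons above. The one for MMP23B and MMP23A was at 4.50 ± 0.02 in SAHA arrays and 4.70 ± 0.13 in DMSO arrays (SD, n = 3 each; limma's adjusted p = 0.0651 over probe sets). The one for ADAM21 and its pseudogene ADAM21P1 was at 3.57 ± 0.08 in SAHA arrays and 3.77 ± 0.05 in DMSO arrays (limma's adjusted p = 0.0438).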
